A study of Mus musculus with 8 samples.

Results

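Chemokines are small secreted proteins, and their receptors are G protein-coupled receptors on the cell surface. All genes on a mouse expression array whose names start with Ccl, Cxcl, Ccr or Cxcr and a number, together with Cx3cl1, Cx3cr1, Xcl1 and Xcr1, are described here. The rule gave 57 genes of 31890 on the array, of which 37 encode ligands and 20 receptors. Only 32 of the 57, that is 23 ligands and 9 receptors, gave a signal that the scanner software set well above background on each array of some cell group and were tested, among 19538 genes tested in all. A further 25 members did not reach that level. Of the tested members, 22 were well above background on all 8 arrays. Ccl6, Ccl9 and Cxcl1, the markers of the set, were among those 22.

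In this family, a ligand binds a receptor coupled to Gi proteins, and the signal runs through phosphoinositide 3-kinases, phospholipases and Rac to the actin skeleton, so that the cell moves toward the source. CC ligands draw mainly monocytes, macrophages and lymphocytes, while CXC ligands such as Cxcl1 draw neutrophils. Cxcl12 is made by stromal and endothelial cells and acts through Cxcr4 on stem and progenitor cells of the blood, and the atypical receptor Cxcr7 (current symbol Ackr3) takes Cxcl12 up without coupling to G proteins. Cx3cl1 is a membrane-tethered ligand of endothelium, and its receptor Cx3cr1 is a surface protein of monocytes and macrophages.

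The cells came from Tg(Ly6a-GFP) conceptuses at E10.5, bred from C57BL/6 x 129S1/SVImJ F1 mothers and Tg(Ly6a-GFP) fathers, and all groups carried the transgene, in which the regulatory region of Ly6a drives green fluorescent protein. Tissue of the AGM region (aorta, gonad and mesonephros) and of the vitelline and umbilical arteries was pooled from 100 embryos, which the labels give as male. Hematopoietic cluster cells, the Kit+ cells that bud from the arterial wall, were sorted as CD31+ VEC+ ESAM+ Kit+, and endothelial cells as CD31+ VEC+ ESAM+ Kit-. Each class was divided by GFP, and the sort gave 30000 GFP+ and 130000 GFP- cluster cells. Of endothelial cells it gave 70000 GFP+ and 300000 GFP-. No embryo received a treatment. The RNA of each group was divided into 2 fractions that were amplified and hybridised separately, so every p-value measures only the technical spread between arrays of 1 pooled RNA and says nothing of the spread between embryos.

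A level here is the log2 signal of a gene's brightest probe minus the array's 75th percentile, so it can be compared between arrays for 1 gene but not between genes. A difference is between group means on this log2 scale, with the standard error (SE) of limma's fit, and it passed when limma's Benjamini-Hochberg adjusted p over all tested genes was below 0.05. The 75th percentiles ran from 708 to 1477 signal units, and between 54.6% and 63.7% of an array's probes stood well above background. The sort was visible in the RNA: Ly6a was higher in GFP+ than in GFP- cells by 3.39 ± 0.17 (adjusted p = 0.000122) in cluster cells and by 4.07 ± 0.17 (adjusted p = 0.000119) in endothelial cells, and Kit was higher in cluster than in endothelial cells by 1.55 ± 0.05 (adjusted p = 3.05e-05) among GFP+ cells. Among GFP- cells the gap in Kit was smaller, at 1.94 and 2.02 on the cluster arrays and 1.33 and 1.35 on the endothelial arrays. All 10 endothelial genes on the list written for this work were well above background on both arrays of every group. Each group had the same array position on both slides, so position and group cannot be told apart. In pooled bulk RNA, fewer cells of a type and less RNA per cell cannot be told apart either.

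Among cluster cells, 5 of the 6 tested ligands listed as inflammatory CC ligands (Ccl2, Ccl3, Ccl4, Ccl7 and Ccl12, but not Ccl5) were higher in GFP+ cells, and 3 others of that list could not be tested. Ccl6, Ccl9 and Cx3cr1 were higher as well, and Cxcl12 and Ccl21a were lower. Of the 32 tested members, 14 were higher and 6 lower, against 32.7% of all tested genes called in either direction (11.8% higher and 20.9% lower). By at least 2-fold, 10 were higher and 2 lower, where 2.99% and 2.39% of all genes were. The median difference was 0.29 over the members and -0.08 over all tested genes. Because a member that is dim in most groups entered the test only through the group where it was bright, these counts do not stand for the 57 genes. Among the 22 members well above background on all 8 arrays, tested with only such genes, 12 were higher and 4 lower, where 38.9% of genes were called (13.8% higher and 25.2% lower).

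In endothelial cells the same 5 of those 6 CC ligands were higher with GFP, and Ccl5 was lower. In all, 15 members were higher in GFP+ cells and 12 lower, against 51.5% of all tested genes called (18.1% higher and 33.3% lower), and 8 were higher and 3 lower by at least 2-fold (2.45% and 4.7% of all genes). The median was 0.36 over the members and -0.13 over all tested genes. Among the 22 members above background throughout, 13 were higher and 6 lower, where 56.9% of genes were called (21.2% higher, 35.7% lower). This count was the one most sensitive to a single array: without the second GFP- endothelial array, 16 members passed, 12 higher and 4 lower. The endothelial and the cluster comparison share no array. They do share both slides and the fit's estimate of the spread, so their calls are not independent. Higher in GFP+ cells in both were 12 members, which is 12 of the 14 higher in cluster cells and 12 of the 15 higher in endothelial cells. Of all tested genes 6.47% were higher in both, which is 54.8% of the genes higher in cluster cells and 35.7% of those higher in endothelial cells. The 12 members were Ccl2, Ccl3, Ccl4, Ccl6, Ccl7, Ccl9, Ccl12, Ccl24, Cxcl1, Cxcl10, Cxcl16 and Cx3cr1. For Cx3cr1 the endothelial difference was 1.34 with the brightest probe but 0.18 with the other. Lower in both were 4 of the 32 members, Ccl21a, Cxcl12, Cxcl17 and Cxcr4, a share near the 11% of all genes. Each of these 4 lost 1 of its 2 calls when some single array was left out.

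**Figure D1:**
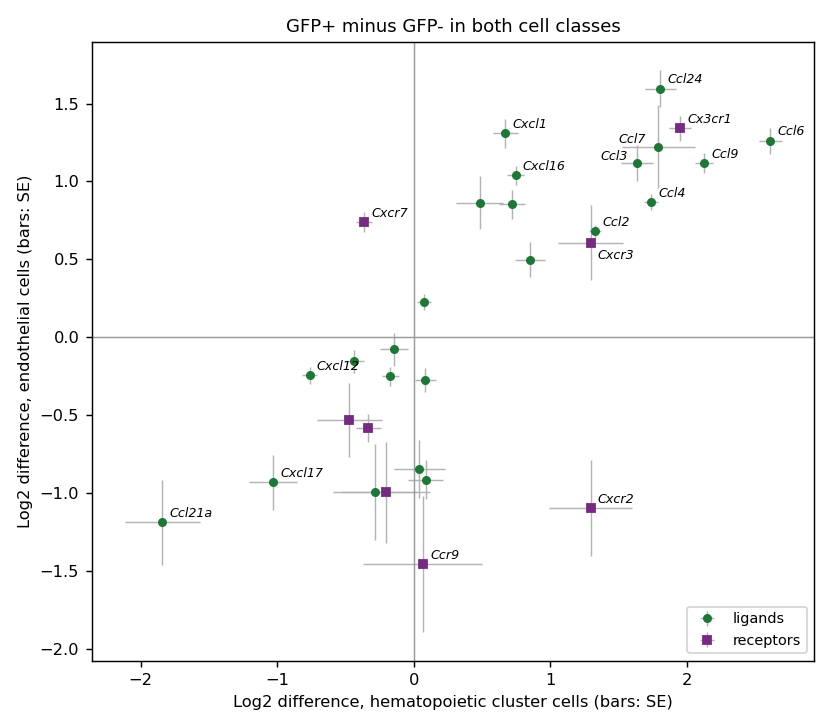
Log2 difference between GFP+ and GFP- cells for 31 of the 32 tested members, in hematopoietic cluster cells (x axis) and in endothelial cells (y axis); green circles are ligands, purple squares receptors, and bars are standard errors of the fit. Ccl6, Ccl9, Ccl24 and Cx3cr1 lie far up and to the right (Ccl6 at 2.61 and 1.26), Ccl21a lies down and to the left (-1.84 and -1.19), and Cxcr7 and Cxcr2 lie on opposite sides of 0 in the 2 classes. For Cxcr2, Ccl5, Ccl7, Ccr7, Ccr9 and Cxcl17, neither array of some group was well above background. Their positions are therefore not fully measured.

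Between the classes, 8 of the 15 tested CC ligands were higher in cluster cells at both GFP states, and Ccl25 was lower at both. Cxcl10, Cx3cr1 and Cxcr3 were also higher at both (11 members in all), and Cxcl12, Cxcr4, Cxcr7 and Cx3cl1 lower (5 with Ccl25). Of all tested genes, 6.34% were higher and 6.88% lower at both. Among GFP+ cells, 17 members were higher and 6 lower in cluster than in endothelial cells, against 50.4% of genes called (26.1% higher, 24.2% lower). By at least 2-fold, 15 were higher and 2 lower (7.69% and 2.18% of all genes). Among GFP- cells, 12 were higher and 5 lower, against 24.3% of genes called (11.9% higher, 12.4% lower), and 9 were higher and 1 was lower by at least 2-fold (1.82% and 0.322%). The calls include Ccl7, which was above background in neither GFP- group. The medians over the members were 0.97 among GFP+ cells and 0.45 among GFP- cells, while the medians over all genes were 0.033 and 0.0042. With the 22 members above background throughout, the counts were 13 higher and 6 lower among GFP+ cells, where 53.6% of genes were called (25.8% higher, 27.8% lower), and 11 higher and 5 lower among GFP- cells, where 31.8% were (14.6% higher, 17.2% lower).

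Among the 22 members above background on all 8 arrays, 18 were ligands, of which 11 had their highest group mean in GFP+ cluster cells, 3 in GFP- cluster cells, 2 in GFP+ and 2 in GFP- endothelial cells. One of the 11 is the probe named Cxcl11, which could not be assigned to that gene. Of the 4 receptors, Cx3cr1 and Cxcr3 were highest in GFP+ cluster cells, Cxcr7 in GFP+ and Cxcr4 in GFP- endothelial cells. Of all genes above background on all 8 arrays, 22.9% were highest in GFP+ cluster, 18.5% in GFP- cluster, 22.9% in GFP+ endothelial and 35.7% in GFP- endothelial cells.

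These counts had a limit in the background correction. When normexp was fitted to the mean and local background signals, 0 members passed for GFP in cluster cells, 0 for GFP in endothelial cells, 1 between the classes among GFP+ cells and 0 among GFP- cells, because on the second GFP- endothelial array 2 spots dimmer than their surroundings lifted the dimmest levels. Its 1st-percentile level was then -1.13, where the other arrays had -4.38 to -3.77. Without those spots, a setting chosen after the data were seen, 18, 18, 18 and 14 members passed.

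The 5 genes Ccl5, Ccl9, Ccl6, Ccl3 and Ccl4 lie next to each other in the list of members along chromosome 11 (probes between chr11:83339296 and chr11:83478111, mm9). Ccl6 and Ccl9 are myeloid CC ligands of mouse, and Ccl3 and Ccl4 are the macrophage inflammatory proteins 1-alpha and 1-beta. The Ccl6 probe (chr11:83401997-83402056) read 0.48 and 0.46 on the GFP+ cluster arrays, -2.10 and -2.18 for GFP- cluster cells, -1.92 and -1.89 for GFP+ endothelial cells and -3.05 and -3.28 for GFP- endothelial cells. GFP+ cluster cells were far above the other groups, GFP- endothelial cells were lowest, and no groups overlapped. GFP+ exceeded GFP- cells by 2.61 ± 0.084 (adjusted p = 3.83e-05) in cluster cells and by 1.26 ± 0.084 (adjusted p = 0.000355) in endothelial cells, and cluster exceeded endothelial cells by 2.38 ± 0.084 (adjusted p = 3.83e-05) among GFP+ cells and 1.03 ± 0.084 (adjusted p = 0.00162) among GFP- cells. The GFP difference was larger in cluster cells by 1.35 ± 0.12 (adjusted p = 0.00227). Within each slide, which held 1 array of every group, the GFP difference of Ccl6 in cluster cells was 2.58 and 2.64, and in endothelial cells 1.13 and 1.39.

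Ccl9 (chr11:83388223-83388282) gave levels of 1.09 and 1.14 on the GFP+ cluster arrays, -1.05 and -0.96 for GFP- cluster cells, -2.71 and -2.80 for GFP+ endothelial cells and -3.93 and -3.81 for GFP- endothelial cells. The 4 groups were apart, in the order GFP+ cluster, GFP- cluster, GFP+ endothelial and GFP- endothelial cells, so both cluster groups were above both endothelial groups. Its class difference among GFP+ cells, 3.87 ± 0.066 (adjusted p = 6.14e-06), was 14.6-fold, and among GFP- cells it was 2.86 ± 0.066 (adjusted p = 4.32e-05), or 7.27-fold. The GFP difference was 2.13 ± 0.066 (adjusted p = 3.33e-05) in cluster cells and 1.12 ± 0.066 (adjusted p = 0.000264) in endothelial cells, and the gap between these passed at 1.01 ± 0.093 (adjusted p = 0.00248).

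For Ccl3 (chr11:83461358-83461417) the levels were -0.15 and -0.29 on the GFP+ cluster arrays, -1.71 and -2.00 for GFP- cluster cells, -1.87 and -1.98 for GFP+ endothelial cells and -3.12 and -2.97 for GFP- endothelial cells. GFP+ cluster cells were highest, and the arrays of GFP- cluster cells overlapped those of GFP+ endothelial cells. Ccl3 was higher with GFP by 1.63 ± 0.12 (adjusted p = 0.000352) in cluster cells and 1.12 ± 0.12 (adjusted p = 0.00115) in endothelial cells, and higher in cluster cells by 1.71 ± 0.12 (adjusted p = 0.000252) among GFP+ and 1.19 ± 0.12 (adjusted p = 0.00287) among GFP- cells. The difference between the GFP effects, 0.52 ± 0.16 (adjusted p = 0.062), did not pass.

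Ccl4 (chr11:83478052-83478111) read -0.51 and -0.53 on the GFP+ cluster arrays, -2.24 and -2.28 for GFP- cluster cells, -2.81 and -2.71 for GFP+ endothelial cells and -3.61 and -3.64 for GFP- endothelial cells. All groups were apart in the order seen for Ccl9. The differences by GFP were 1.74 ± 0.052 (adjusted p = 2.99e-05) in cluster cells and 0.87 ± 0.052 (adjusted p = 0.00027) in endothelial cells, those by class 2.25 ± 0.052 (adjusted p = 1.1e-05) among GFP+ and 1.37 ± 0.052 (adjusted p = 0.00014) among GFP- cells. The GFP effect was larger in cluster cells by 0.88 ± 0.074 (adjusted p = 0.00207).

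Ccl5, the fifth gene of this stretch and a ligand of T cells and monocytes, was dim. Its levels were -4.38 and -4.60 on the GFP+ cluster arrays, -4.64 and -4.42 for GFP- cluster cells, -5.24 and -5.77 for GFP+ endothelial cells and -4.67 and -4.65 for GFP- endothelial cells, and neither GFP+ cluster array was well above background, so no fold is given for comparisons with that group. In endothelial cells it was lower in GFP+ cells at -0.84 ± 0.19 (adjusted p = 0.0134), a call lost without either GFP- endothelial array (adjusted p from 0.0575 to 0.0629) and under quantile normalization and the authors' deposited values. Its 4 neighbours were thus higher with GFP in endothelial cells, and it was lower.

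A second run on chromosome 11 (probes between chr11:81850650 and chr11:81990227, mm9) holds Ccl2, Ccl7, Ccl11, Ccl12, Ccl8 and Ccl1, of which Ccl2, Ccl7 and Ccl12 could be tested. These 3 are monocyte chemoattractant proteins that act through Ccr2, itself above background on no array. For Ccl2 (chr11:81850650-81850709) the levels were -0.92 and -0.91 on the GFP+ cluster arrays, -2.23 and -2.26 for GFP- cluster cells, -2.74 and -2.71 for GFP+ endothelial cells and -3.39 and -3.42 for GFP- endothelial cells. The groups did not overlap and followed the order of Ccl9. GFP+ cells had more Ccl2 by 1.33 ± 0.042 (adjusted p = 3.42e-05) among cluster and 0.68 ± 0.042 (adjusted p = 0.000281) among endothelial cells, and cluster cells had more by 1.81 ± 0.042 (adjusted p = 1.1e-05) among GFP+ and 1.16 ± 0.042 (adjusted p = 0.000114) among GFP- cells. Cluster cells had the larger GFP difference, by 0.65 ± 0.059 (adjusted p = 0.00243).

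Ccl12 (chr11:81916764-81916823) read -2.60 and -2.66 on the GFP+ cluster arrays, -3.36 and -3.61 for GFP- cluster cells, -4.04 and -3.87 for GFP+ endothelial cells and -4.37 and -4.53 for GFP- endothelial cells. The order was again that of Ccl9 without overlap, with smaller steps. GFP+ cells exceeded GFP- cells by 0.85 ± 0.11 (adjusted p = 0.00317) in cluster cells and 0.50 ± 0.11 (adjusted p = 0.0137) in endothelial cells, the latter lost without the second GFP+ or the second GFP- endothelial array (0.41 and 0.42, adjusted p from 0.0631 to 0.072). Between the classes the differences were 1.32 ± 0.11 (adjusted p = 0.000476) among GFP+ and 0.97 ± 0.11 (adjusted p = 0.00454) among GFP- cells.

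Ccl7 (chr11:81860656-81860715) stood well above background on both GFP+ cluster arrays, on 1 of the 2 GFP+ endothelial arrays, and on no array of either GFP- group. Its levels were -3.55 and -3.28 on the GFP+ cluster arrays, -5.38 and -5.04 for GFP- cluster cells, -5.59 and -6.35 for GFP+ endothelial cells and -7.25 and -7.14 for GFP- endothelial cells. GFP+ cluster cells exceeded GFP- cluster cells at least 3.39-fold, taking the lowest signal well above background as the floor (adjusted p = 0.00502), and GFP+ endothelial cells by 2.55 ± 0.27 (adjusted p = 0.000944). For the GFP difference in endothelial cells, no fold can be given. That call was lost without either GFP- endothelial array (adjusted p from 0.0513 to 0.0626).

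Ccl24 (chr5:136046667-136046726), an eosinophil chemoattractant also made by alternatively activated macrophages, lies outside both runs. It read -1.79 and -1.70 on the GFP+ cluster arrays, -3.68 and -3.43 for GFP- cluster cells, -3.37 and -3.60 for GFP+ endothelial cells and -5.14 and -5.02 for GFP- endothelial cells. GFP+ cluster cells were highest and GFP- endothelial cells lowest, while GFP- cluster and GFP+ endothelial arrays overlapped. Here the GFP difference was 1.81 ± 0.12 (adjusted p = 0.000254) in cluster and 1.60 ± 0.12 (adjusted p = 0.00044) in endothelial cells, and the class difference 1.74 ± 0.12 (adjusted p = 0.000241) among GFP+ and 1.52 ± 0.12 (adjusted p = 0.00125) among GFP- cells. The difference between the GFP effects was 0.21 and did not pass (adjusted p = 0.362).

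**Figure D2:**
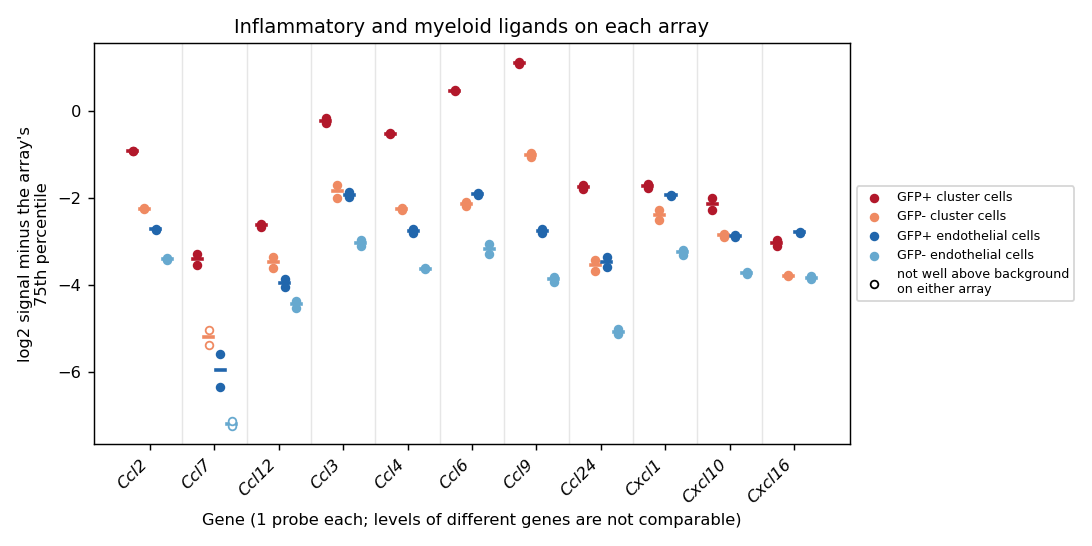
Level of 11 ligands on each array (points; the dash is the mean of the 2 arrays of a group), as log2 signal minus the array's 75th percentile; open points mark groups with neither array well above background. GFP+ cluster cells (dark red) are highest for 10 of the 11 genes, with Ccl6 at 0.48 and 0.46 and Ccl9 at 1.09 and 1.14, and GFP+ endothelial cells (dark blue) are highest for Cxcl16.

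Among the CXC ligands, Cxcl1, a neutrophil chemoattractant acting through Cxcr2, had a different order. Its levels were -1.68 and -1.78 on the GFP+ cluster arrays, -2.28 and -2.51 for GFP- cluster cells, -1.93 and -1.95 for GFP+ endothelial cells and -3.19 and -3.31 for GFP- endothelial cells (chr5:91321845-91321904, mm9). Both GFP+ groups were above both GFP- groups, and no groups overlapped. The GFP difference was 0.67 ± 0.092 (adjusted p = 0.00386) in cluster cells and 1.31 ± 0.092 (adjusted p = 0.000398) in endothelial cells, and the difference between them, -0.64 ± 0.13 (adjusted p = 0.018), passed with the larger effect in endothelial cells. This last call was lost without the second GFP+ cluster, the first GFP+ endothelial or the second GFP- endothelial array (adjusted p from 0.0524 to 0.0589). Among GFP+ cells the classes did not pass (0.21 ± 0.092 (adjusted p = 0.106)), and among GFP- cells cluster cells were higher by 0.85 ± 0.092 (adjusted p = 0.00386). Its neighbours Cxcl2, Cxcl3 and Cxcl15 were above background on no array, and Cxcl5 on 1.

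The promoters of Cxcl1, Cxcl2 and Cxcl3 are shown because they share a kappaB motif, a site type for NF-kB, while only Cxcl1 gave a signal that could be tested. The motif was searched on both strands in the 250 bases before each gene's start in RefSeq promoters (GRCm38.p6) and was found in 0.356% of 32851 promoters. Of the 42 members with a promoter in that table, Cxcl1, Cxcl2, Cxcl3 and Ccr3 held it. Capitals mark the match, which began at -71 from the start in Cxcl1 (chr5:90891159-90891198, + strand), at -97 in Cxcl2 (chr5:90903787-90903826, + strand) and at -73 in Cxcl3 (chr5:90786013-90786052, + strand).
Cxcl1: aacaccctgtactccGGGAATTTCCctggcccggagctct
Cxcl2: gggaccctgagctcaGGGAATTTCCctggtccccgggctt
Cxcl3: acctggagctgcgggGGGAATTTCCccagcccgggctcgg
The same letters thus stood before a gene whose signal differed with GFP and before a pair of genes above background on no array. A match is a description of the letters only.

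Cxcl10, an interferon-induced ligand of Cxcr3, read -2.00 and -2.27 on the GFP+ cluster arrays, -2.90 and -2.82 for GFP- cluster cells, -2.85 and -2.90 for GFP+ endothelial cells and -3.75 and -3.71 for GFP- endothelial cells (chr5:92775781-92775840, mm9). GFP+ cluster cells were highest and GFP- endothelial cells lowest, and GFP- cluster and GFP+ endothelial arrays overlapped. With GFP it was higher by 0.72 ± 0.094 (adjusted p = 0.00314) in cluster and 0.85 ± 0.094 (adjusted p = 0.00135) in endothelial cells, and the class difference was 0.74 ± 0.094 (adjusted p = 0.0019) among GFP+ and 0.87 ± 0.094 (adjusted p = 0.00378) among GFP- cells. Its neighbour Cxcl9, the other interferon-induced ligand of Cxcr3, was above background on no array. The interferon-stimulated response element, searched as above, stood in 2.98% of promoters and in those of the members Cxcl10, Ccl19 and Cxcl14. In Cxcl10 the match began at -213 (chr5:92349078-92349117, - strand, GRCm38.p6).
Cxcl10: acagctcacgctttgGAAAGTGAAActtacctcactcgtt

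Cxcl16, a membrane-bound ligand of Cxcr6, was higher in both GFP+ groups. Its levels were -3.12 and -2.98 on the GFP+ cluster arrays, -3.79 and -3.80 for GFP- cluster cells, -2.82 and -2.77 for GFP+ endothelial cells and -3.87 and -3.80 for GFP- endothelial cells. GFP+ endothelial cells were highest, and the GFP- groups lay together at the bottom. Against GFP- cells the difference was 0.75 ± 0.061 (adjusted p = 0.000567) in cluster and 1.04 ± 0.061 (adjusted p = 0.000258) in endothelial cells. Among GFP+ cells it was lower in cluster cells at -0.25 ± 0.061 (adjusted p = 0.0178), a call lost without the first GFP+ cluster or either GFP+ endothelial array (adjusted p from 0.0549 to 0.0794). Its receptor Cxcr6 was above background on no array.

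The probe named Cxcl11 could not be assigned to that gene. Its levels were 6.34 and 6.04 on the GFP+ cluster arrays, 6.13 and 6.07 for GFP- cluster cells, 5.04 and 4.93 for GFP+ endothelial cells and 5.77 and 6.03 for GFP- endothelial cells, lower in GFP+ endothelial cells than in the other groups, and it passed at -0.91 ± 0.13 (adjusted p = 0.00289) for GFP in endothelial cells, by 1.20 ± 0.13 (adjusted p = 0.00104) between the classes among GFP+ cells and by 1.004 ± 0.18 (adjusted p = 0.0128) for the difference between the GFP effects. The other probe of the gene, well above background on all 8 arrays, gave 0.0225, 0.16 and -0.0188 in these comparisons. The brighter probe shared a stretch of at least 20 bases with the promoters of 21 genes and with array probes of 5 other names, among them Elk1, F10 and Med16, and the other probe with none. The stretch most often shared, printed because it is what makes the assignment uncertain, was found in 15 promoters.
Cxcl11 probe: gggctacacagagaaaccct

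Cxcl12 and its signalling receptor Cxcr4 passed as lower with GFP in both classes, while Cxcr7 was lower in cluster cells and higher in endothelial cells. The endothelial call of Cxcl12 and the cluster call of Cxcr4 did not hold without some single arrays. The Cxcl12 probe (chr6:117131227-117131286, mm9) read 0.37 and 0.43 on the GFP+ cluster arrays, 1.12 and 1.20 for GFP- cluster cells, 1.44 and 1.47 for GFP+ endothelial cells and 1.66 and 1.74 for GFP- endothelial cells. GFP- endothelial cells were highest and GFP+ cluster cells lowest, with no overlap between groups. GFP+ cells had less Cxcl12 at -0.76 ± 0.055 (adjusted p = 0.000363) in cluster cells and -0.24 ± 0.055 (adjusted p = 0.0143) in endothelial cells, and cluster cells had less at -1.06 ± 0.055 (adjusted p = 0.000122) among GFP+ and -0.54 ± 0.055 (adjusted p = 0.0033) among GFP- cells. The decrease with GFP was larger in cluster cells (-0.52 ± 0.078 (adjusted p = 0.00774)). A second probe, of another transcript, gave the same 5 signs (-1.20, -0.52, -1.12, -0.43 and -0.68). The endothelial GFP call was lost without the first GFP+ or the second GFP- endothelial array (adjusted p from 0.0661 to 0.0691).

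Cxcr4, the signalling receptor of Cxcl12, read -2.93 and -3.13 on the GFP+ cluster arrays, -2.62 and -2.78 for GFP- cluster cells, -2.14 and -2.04 for GFP+ endothelial cells and -1.51 and -1.50 for GFP- endothelial cells (chr1:130485079-130485138). Endothelial cells were above cluster cells, GFP- endothelial cells most, and no groups overlapped. Cxcr4 was lower in cluster cells at -0.94 ± 0.09 (adjusted p = 0.000721) among GFP+ and -1.19 ± 0.09 (adjusted p = 0.00121) among GFP- cells, and lower with GFP at -0.58 ± 0.09 (adjusted p = 0.00407) in endothelial cells. In cluster cells the GFP difference of -0.33 ± 0.09 (adjusted p = 0.0379) was lost in 13 of 20 other settings, among them quantile normalization and 7 of the 8 settings that left out 1 array (-0.41 to -0.23, adjusted p from 0.0559 to 0.17).

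Cxcr7, the atypical receptor of Cxcl12, had levels of -0.89 and -0.94 on the GFP+ cluster arrays, -0.57 and -0.54 for GFP- cluster cells, 0.59 and 0.54 for GFP+ endothelial cells and -0.25 and -0.10 for GFP- endothelial cells (chr1:92111803-92111862). GFP+ endothelial cells were highest, followed by GFP- endothelial, GFP- cluster and GFP+ cluster cells, and none overlapped. With GFP it was higher in endothelial cells by 0.74 ± 0.062 (adjusted p = 0.000631) and lower in cluster cells at -0.36 ± 0.062 (adjusted p = 0.00834), and the difference between these effects passed at -1.10 ± 0.088 (adjusted p = 0.00188). Cluster cells had less of it at -1.48 ± 0.062 (adjusted p = 6.5e-05) among GFP+ cells and -0.38 ± 0.062 (adjusted p = 0.0122) among GFP- cells. The last call was lost without either GFP- cluster array (adjusted p from 0.0612 to 0.0677). Of Cxcl12, Cxcr4 and Cxcr7, only Cxcr7 was higher with GFP in endothelial cells.

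Cx3cr1 (chr9:119957811-119957870, mm9) was highest in the group where Ccl6 and Ccl9 were highest. It read 1.61 and 1.61 on the GFP+ cluster arrays, -0.35 and -0.34 for GFP- cluster cells, -0.46 and -0.42 for GFP+ endothelial cells and -1.89 and -1.66 for GFP- endothelial cells. GFP+ cluster cells were highest, GFP- cluster and GFP+ endothelial cells were close to each other without overlap, and GFP- endothelial cells were lowest. GFP+ exceeded GFP- by 1.95 ± 0.08 (adjusted p = 6.68e-05) in cluster and 1.34 ± 0.08 (adjusted p = 0.000264) in endothelial cells, and cluster exceeded endothelial cells by 2.05 ± 0.08 (adjusted p = 5.01e-05) among GFP+ and 1.43 ± 0.08 (adjusted p = 0.00047) among GFP- cells. The GFP difference was larger in cluster cells by 0.61 ± 0.11 (adjusted p = 0.0136), a call lost with the mean of both probes. The second probe of the gene gave 1.72 in cluster cells but only 0.18 in endothelial cells for GFP. The brighter probe shared a stretch of at least 20 bases with 1 array probe of another name, and the second probe with none.

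Its ligand Cx3cl1 had a narrow range, with levels of 0.82 and 0.83 on the GFP+ cluster arrays, 0.76 and 0.73 for GFP- cluster cells, 1.27 and 1.18 for GFP+ endothelial cells and 1.03 and 0.97 for GFP- endothelial cells. GFP+ endothelial cells were highest, and the groups were apart. Cx3cl1 was lower in cluster than in endothelial cells at -0.40 ± 0.051 (adjusted p = 0.00185) among GFP+ cells. Smaller differences passed for class among GFP- cells (-0.25 ± 0.051 (adjusted p = 0.0212)) and for GFP in endothelial cells (0.23 ± 0.051 (adjusted p = 0.0138)), and both were lost without single arrays (adjusted p from 0.0589 to 0.106 and from 0.0682 to 0.0697). The ligand and its receptor thus peaked in different groups, Cx3cl1 in GFP+ endothelial and Cx3cr1 in GFP+ cluster cells.

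**Figure D3:**
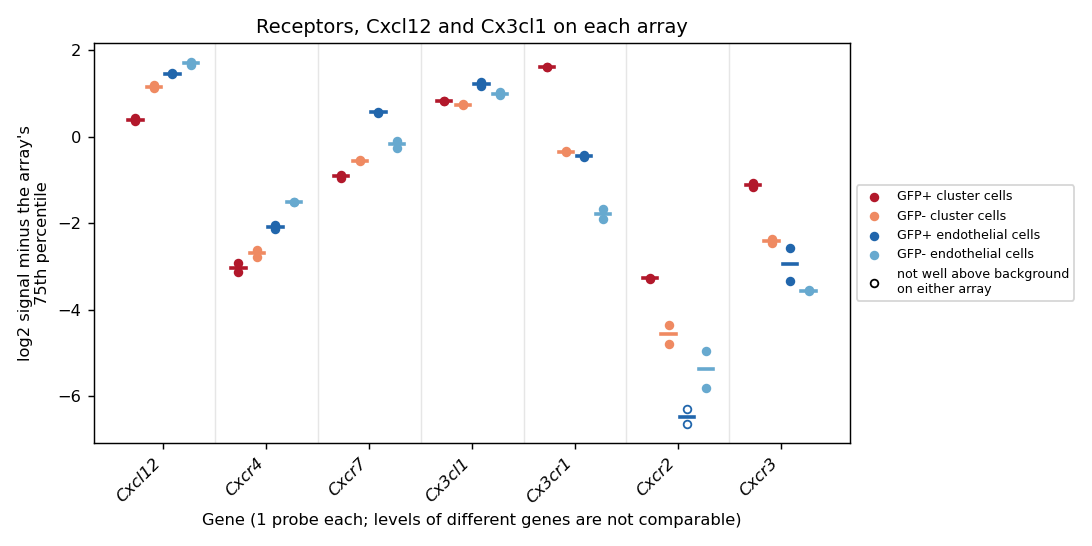
Level of 5 receptors and of the ligands Cxcl12 and Cx3cl1 on each array (points; the dash is the mean of the 2 arrays), as log2 signal minus the array's 75th percentile; open points mark groups with neither array well above background. Cxcl12, Cxcr4 and Cxcr7 are lowest in GFP+ cluster cells, and Cx3cr1 is highest there at 1.61 on both arrays.

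Cxcr3, the receptor of Cxcl9, Cxcl10 and Cxcl11 on activated T cells, read -1.06 and -1.17 on the GFP+ cluster arrays, -2.45 and -2.37 for GFP- cluster cells, -3.34 and -2.56 for GFP+ endothelial cells and -3.55 and -3.57 for GFP- endothelial cells. GFP+ cluster cells were highest. The GFP+ endothelial arrays lay far apart, yet no groups overlapped. Cluster cells had more by 1.84 ± 0.24 (adjusted p = 0.00204) among GFP+ cells. The GFP difference in cluster cells was 1.30 ± 0.24 (adjusted p = 0.0108), lost without the first GFP+ or the first GFP- cluster array (adjusted p from 0.0535 to 0.0597). Among GFP- cells the class difference was 1.15 ± 0.24 (adjusted p = 0.0231), lost without any of the 4 arrays compared (adjusted p from 0.0872 to 0.104).

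Cxcr2, the receptor of Cxcl1 on neutrophils and their precursors, was well above background on all 4 cluster arrays, on 1 GFP- endothelial array and on no GFP+ endothelial array. Its levels were -3.26 and -3.30 on the GFP+ cluster arrays, -4.79 and -4.36 for GFP- cluster cells, -6.31 and -6.66 for GFP+ endothelial cells and -5.81 and -4.95 for GFP- endothelial cells. Among GFP+ cells, cluster cells exceeded endothelial cells at least 5.04-fold (adjusted p = 0.000727). GFP+ cluster cells exceeded GFP- cluster cells by 1.30 ± 0.31 (adjusted p = 0.025), but that call was lost without any of these 4 arrays (adjusted p from 0.0527 to 0.12). In endothelial cells GFP- cells were higher at least 1.17-fold (adjusted p = 0.0289), which was lost without 3 of the 4 arrays compared and under quantile normalization.

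Ccr8, Ccr9 and Ccr7 were near background. Ccr8, a receptor of T cells, read -4.25 and -3.56 on the GFP+ cluster arrays, -4.03 and -3.38 for GFP- cluster cells, -5.18 and -5.06 for GFP+ endothelial cells and -4.39 and -3.86 for GFP- endothelial cells, and Ccr9, the receptor of Ccl25, read -5.37 and -4.47 on the GFP+ cluster arrays, -5.53 and -4.44 for GFP- cluster cells, -6.48 and -6.38 for GFP+ endothelial cells and -5.15 and -4.79 for GFP- endothelial cells. Both were dimmest in GFP+ endothelial cells, where neither Ccr9 reading was well above background. Ccr8 passed between the classes among GFP+ cells (1.21 ± 0.33 (adjusted p = 0.0256)) and for GFP in endothelial cells (-0.996 ± 0.33 (adjusted p = 0.047)). Ccr9 was at least 1.62-fold higher in cluster cells among GFP+ cells and at least 1.56-fold higher in GFP- than GFP+ endothelial cells (adjusted p = 0.0328 and 0.0357). These 4 calls were lost under quantile normalization, with the authors' deposited values and without any of several single arrays (adjusted p up to 0.202). Ccr7, the homing receptor for Ccl19 and Ccl21, was not well above background in GFP+ cluster cells and passed in no comparison (adjusted p from 0.11 to 0.904).

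The homeostatic CC ligands had no common order. Ccl21a, which guides lymphocytes and dendritic cells, read -4.89 and -4.20 on the GFP+ cluster arrays, -2.82 and -2.58 for GFP- cluster cells, -4.93 and -4.44 for GFP+ endothelial cells and -3.38 and -3.61 for GFP- endothelial cells, with both GFP- groups above both GFP+ groups. It was lower with GFP at -1.84 ± 0.27 (adjusted p = 0.00511) in cluster cells and -1.19 ± 0.27 (adjusted p = 0.0154) in endothelial cells, the latter lost without the first GFP+ or the first GFP- endothelial array (adjusted p from 0.0697 to 0.0781). Only 1 of the 2 GFP+ cluster arrays was well above background for Ccl21a, so the size of its difference in cluster cells is uncertain. Ccl21b, its near-copy, read 1.58 and 1.56 on the GFP+ cluster arrays, 1.96 and 2.04 for GFP- cluster cells, 1.65 and 1.69 for GFP+ endothelial cells and 1.73 and 1.92 for GFP- endothelial cells and was lower with GFP in cluster cells at -0.43 ± 0.074 (adjusted p = 0.00834). The 60-base probes of the pair share a stretch of 43 bases, so their signals cannot be fully told apart. Ccl19, which shares the receptor Ccr7, had levels from -4.46 to -2.82, and was lower with GFP in endothelial cells (-0.99 ± 0.31 (adjusted p = 0.0391)), a call lost without any of the 4 endothelial arrays (adjusted p from 0.0729 to 0.153).

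Ccl25, a thymic and intestinal ligand, stayed between -1.39 and -0.91, and its 3 calls, of -0.25, -0.18 and -0.26 for GFP in endothelial cells and for class among GFP+ and GFP- cells, were each lost when any of 4 to 6 of the 8 arrays was left out (adjusted p from 0.054 to 0.185). The call among GFP+ cells was also lost with the slide as a block. Ccl27a, a ligand of skin, was higher in cluster cells among GFP+ cells by 0.44 ± 0.076 (adjusted p = 0.00572), and lower with GFP in endothelial cells at -0.27 ± 0.076 (adjusted p = 0.0286), a call lost when any of 6 of the 8 arrays was left out (adjusted p from 0.0519 to 0.108). Ccl17, a dendritic cell ligand of Ccr4, had levels from -5.30 to -4.26 and was higher with GFP in endothelial cells by 0.86 ± 0.17 (adjusted p = 0.00921), and passed in no other comparison. Only 1 of the 2 GFP- endothelial arrays was well above background for Ccl17, so that size is uncertain. Cxcl14, a ligand of epithelia, stayed between -4.08 and -3.71 and passed in none. Cxcl17, a mucosal ligand, read -6.33 and -5.81 on the GFP+ cluster arrays, -5.00 and -5.09 for GFP- cluster cells, -5.51 and -5.75 for GFP+ endothelial cells and -4.73 and -4.66 for GFP- endothelial cells, and neither GFP+ cluster array was well above background. It was lower with GFP in endothelial cells at -0.93 ± 0.18 (adjusted p = 0.00799), which was lost under quantile normalization, and its call in cluster cells, for which no fold can be given, was lost without the first GFP- cluster array (adjusted p = 0.0515).

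A further 14 ligands and 11 receptors were not tested. Of these 25, 21 were well above background on no array, and Ccl22, Ccr10, Cxcl5 and Cxcl13 reached that level on 1 or 2 arrays only. Ccl22 did so on 1 GFP+ endothelial array at -3.49, while its other 7 readings ran from -8.20 to -6.60. The 21 comprised the ligands Ccl1, Ccl8, Ccl11, Ccl20, Ccl26, Ccl28, Cxcl2, Cxcl3, Cxcl9, Cxcl15 and Xcl1 and the receptors Ccr1, Ccr1l1, Ccr2, Ccr3, Ccr4, Ccr6, Cxcr1, Cxcr5, Cxcr6 and Xcr1. Among them are Ccr1, Ccr2, Ccr3 and Cxcr6, receptors of ligands that were higher with GFP.

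The comparison of the GFP effects between the classes gave 7 members with a higher and 3 with a lower value in cluster cells, against 31.1% of all genes called (15.7% higher, 15.5% lower), and 22 did not pass. By at least 2-fold, 4 were higher and 1 was lower (4.03% and 1.64% of all genes). The share of members called was 31.2%, near that of all genes. Among the 22 members above background throughout, 8 were higher and 4 lower, where 37.4% of genes were called (18.5% higher, 18.9% lower). Under normexp 0 passed, and 13 without the aberrant spots of the second GFP- endothelial array.

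Macrophage and general blood markers were highest and lowest in the same groups as the sum of Ccl6, Ccl9 and Cxcl1, and erythroid genes were not. The platelet sum was highest in GFP- endothelial cells, at 21.9 to 22.0. Without Pf4 and Ppbp, the other 7 platelet genes were highest in GFP+ cluster cells, at 7.15 to 7.28, as the chemokine sum was. Both platelet sums were lowest in GFP- cluster cells. The 15 measured macrophage markers, among them Csf1r and Lyz2, had a summed signal (75th percentile = 1) of 35.3 to 35.9 on the GFP+ cluster arrays, 12.3 to 12.7 in GFP- cluster, 12.5 to 13.0 in GFP+ endothelial and 5.80 to 5.81 in GFP- endothelial cells. In cluster cells 15 of the 15 were higher with GFP, in endothelial cells 14, where 11.8% and 18.1% of all tested genes were. Between the classes 15 among GFP+ and 13 among GFP- cells were higher in cluster cells, where 26.1% and 11.9% of all tested genes were. In GFP- endothelial cells Cd68, Lyz2, Timd4, Cd5l and Spi1 were well above background on neither array. The sum for Ccl6, Ccl9 and Cxcl1 was 3.85 to 3.87 in GFP+ cluster, 0.909 to 0.921 in GFP- cluster, 0.671 to 0.680 in GFP+ endothelial and 0.275 to 0.296 in GFP- endothelial cells. These genes were chosen with earlier results of these data known, and each was highest in GFP+ cluster and lowest in GFP- endothelial cells. Only 14 of the 32 tested members were so, and the sum does not stand for the family. The 10 blood genes were highest in GFP+ cluster cells, at 46.5 to 48.0, then fell through GFP- cluster and GFP+ endothelial cells. They were lowest in GFP- endothelial cells, at 3.55 to 3.73. With GFP, 10 of 10 were higher in cluster cells and 7 of 10 in endothelial cells, against 11.8% and 18.1% of all tested genes. The part of macrophages or other blood cells in the ligand signal was not tested. The number of cells sorted was also lowest for GFP+ cluster cells and highest for GFP- endothelial cells, and its part was not tested.

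Other markers had other orders. The 10 neutrophil and granule genes summed to 22.3 to 22.5 in GFP+ cluster, 7.76 to 8.22 in GFP- cluster and 1.45 to 1.95 in the endothelial groups, but nearly all of the cluster sums was Mpo. Without Mpo the sums were 0.857 to 1.05, 0.483 to 0.656 and 0.781 to 0.979. Of the 8 tested genes of that list, 3 were higher with GFP in cluster cells, where 11.8% of all tested genes were. S100a8 and S100a9 were well above background on all 4 endothelial arrays, at -3.69 to -2.95 and -1.75 to -1.59, and on no cluster array. Erythroid genes were highest in both GFP- groups, at 1086 to 1101 in cluster and 723 to 747 in endothelial cells, against 144 to 165 in the GFP+ groups. Of these, 11 of 11 were lower with GFP in cluster and in endothelial cells, where 20.9% and 33.3% of all tested genes were. Mesenchymal genes summed to 8.57 to 8.69 in GFP+ cluster cells, 17.3 to 17.5 in GFP- cluster, 16.1 to 16.8 in GFP+ endothelial and 24.2 to 24.8 in GFP- endothelial cells, an order in which Cxcl12 also ran except that its GFP- cluster level was below that of GFP+ endothelial cells. The 10 endothelial genes also had their lowest sum in GFP+ cluster cells, at 219.7 to 223, against 283 to 294 in GFP- cluster, 279 to 301 in GFP+ endothelial and 305 to 319 in GFP- endothelial cells. With GFP, 7 of these 10 were lower and 0 higher in cluster cells, where 20.9% of all tested genes were lower. In endothelial cells 2 were lower and 2 higher, where 33.3% and 18.1% of all genes were. In cluster against endothelial cells, 8 were lower and 1 higher among GFP+ cells, where 24.2% of all genes were lower. Among GFP- cells 3 were lower and 1 higher, where 12.4% of all genes were lower. The part of mesenchymal or endothelial cells in the Cxcl12 signal was not tested. Lymphoid markers summed to 2.81 to 3.07 in GFP+ cluster cells and to 1.76 to 2.00 in the other groups, with Cd3g, Rag1, Rag2 and Ms4a1 above background in no group.

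**Figure D4:**
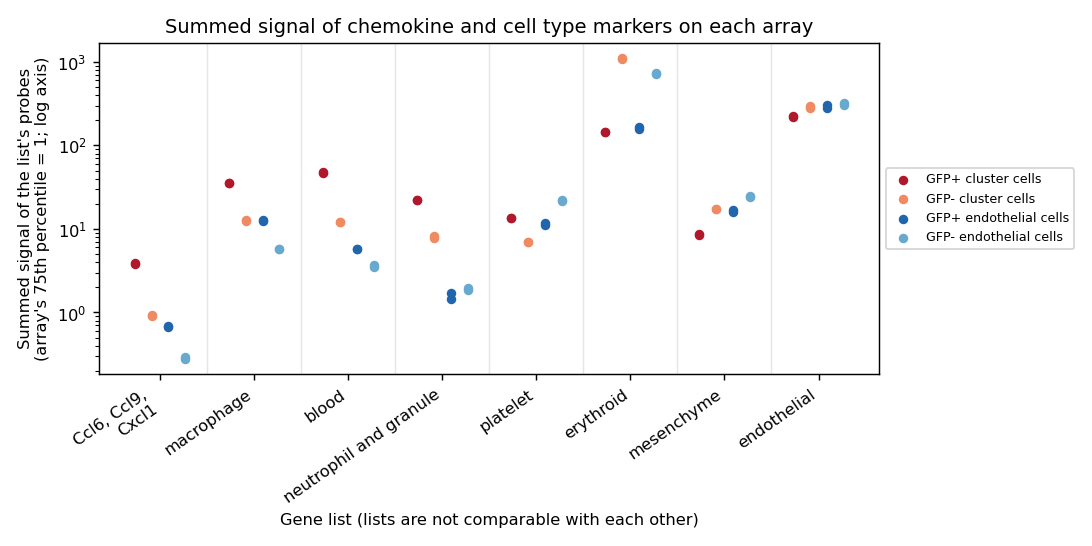
Summed signal of Ccl6, Ccl9 and Cxcl1 and of the marker lists on each array (points; log axis; an array's 75th percentile = 1). The chemokine sum and the macrophage and blood sums are highest in GFP+ cluster cells and lowest in GFP- endothelial cells, at 35.3 to 35.9 and 5.80 to 5.81 for macrophage markers, while erythroid genes are highest in both GFP- groups.

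A pair of chemokines with other names, Pf4 and Ppbp, are released by platelets. The order of Pf4 differed from that of Cxcl1, Cxcl10 and Cxcl16, while its highest group was also that of Cxcl12 and Cxcl17. Pf4 read 2.63 and 2.56 on the GFP+ cluster arrays, 2.00 and 2.00 for GFP- cluster cells, 3.02 and 2.89 for GFP+ endothelial cells and 4.05 and 4.03 for GFP- endothelial cells. GFP- endothelial cells were highest, GFP- cluster cells lowest, and no groups overlapped. Pf4 was higher with GFP in cluster cells by 0.60 ± 0.057 (adjusted p = 0.00102) and lower in endothelial cells at -1.09 ± 0.057 (adjusted p = 0.000196), with the difference between the effects at 1.68 ± 0.081 (adjusted p = 0.00111). Ppbp was lower in cluster than in endothelial cells at -2.77 ± 0.066 (adjusted p = 4.32e-05) among GFP- cells. The 7 platelet markers other than this pair summed to 7.15 to 7.28 in GFP+ cluster, 2.70 to 2.71 in GFP- cluster, 3.07 to 3.08 in GFP+ endothelial and 4.11 to 4.24 in GFP- endothelial cells, so their highest group was not that of Pf4. With GFP, 7 of the 9 platelet markers were higher in cluster cells, where 11.8% of all tested genes were. In endothelial cells 1 was higher and 5 were lower, where 18.1% and 33.3% of all tested genes were.

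The signalling machinery below the receptors was described with a list of 67 other pathway genes, of which 63 were tested. In cluster cells 26 were higher and 16 lower with GFP, which is 66.7% called against 32.7% of all tested genes (11.8% higher and 20.9% lower). In endothelial cells 16 were higher and 18 lower, and this 54% was near the 51.5% of all genes (18.1% higher and 33.3% lower). Between the classes 25 were higher and 23 lower among GFP+ cells (76.2% called), against 50.4% of all genes (26.1% higher and 24.2% lower). Among GFP- cells 20 were higher and 12 lower (50.8% called), against 24.3% of all genes (11.9% higher and 12.4% lower). Kinases and lipases were higher with GFP in cluster cells for 9 of 13 and lower for 0, against 11.8% and 20.9% of all tested genes. G proteins were higher for 1 and lower for 7 of 10 in the same comparison. Among those with the largest differences there were Ptk2b, a focal adhesion kinase activated by chemokines (2.08 ± 0.16 (adjusted p = 0.000466)), Dock2, the Rac exchange factor of leukocytes (2.07 ± 0.37 (adjusted p = 0.0102)), and Rac2, the Rac of blood cells (1.86 ± 0.042 (adjusted p = 1.83e-05)). Vav1 (1.74) and Rgs14 (1.56) followed. In endothelial cells Ptk2b (1.62 ± 0.16 (adjusted p = 0.000981)) was again higher, as were Rgs1 at 1.24 and Dpp4, a protease that trims chemokines, at 1.16. Only 1 of the 2 GFP- endothelial arrays was well above background for Rgs1, so the size for Rgs1 in endothelial cells is uncertain. Rgs18 was lower at -1.11. Dock2 was at least 1.08-fold higher there.

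Between the classes, list genes passed in both directions. Among GFP+ cells Rac2 differed by 3.75 ± 0.042 (adjusted p = 4.07e-06), Dock2 by 3.49 ± 0.37 (adjusted p = 0.00106), Pik3cd, a leukocyte phosphoinositide 3-kinase, by 3.08 ± 0.094 (adjusted p = 2.43e-05) and Vav1 by 3.01 ± 0.057 (adjusted p = 6.65e-06), while Pik3r5 was at least 3.31-fold and Arhgap15 at least 2.61-fold higher. Kinases and lipases were higher for 10 and lower for 1 of 13 there, and G proteins were higher for 1 and lower for 6 of 10. Of all tested genes, 26.1% were higher and 24.2% lower in that comparison. Dock2 was well above background on 1 of the 2 GFP+ endothelial arrays. Among GFP- cells Dock2 was at least 2.90-fold and Arhgap15 at least 1.26-fold higher, Rac2 differed by 2.76 ± 0.042 (adjusted p = 3.45e-05) and Ptk2b by 1.68 ± 0.16 (adjusted p = 0.00264), and Pf4 was lower at -2.04 ± 0.057 (adjusted p = 6.48e-05). The difference between the GFP effects was 2.64 for Rgs18, 1.68 for Pf4, 1.68 for Pik3cd and 1.62 for Vav1, all well above background on all 8 arrays, and 1.92 for Plcb2, above it on 7. Pik3r5 passed too, but it was well above background on no endothelial array, so no size is given. Blood cells in general carry most of these leukocyte genes, and the part of such cells in these differences was not tested.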

How the data were processed

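The 57 members and all gene lists were chosen with earlier results of these data known. Per the labels' protocols, the RNA was amplified from 2 fractions per group, and Cy3 was coupled to material from 50 ng for 1-colour arrays of Agilent. Agilent Feature Extraction 10.10.1.1, per the file headers, made the deposited intensity values, which include the mean signal, the local background and a background-corrected processed signal. A further deposited table holds the authors' normalized intensities, with a median of 198 in each column, used only as an alternative; it followed the scanner values (r of log2 values from 0.9974 to 0.9997). Its normalization is not given in the sources used, so its scale and direction rest on that match.

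The main values are log2 of the processed signal minus the 75th percentile of an array's non-control probes. Outlier spots were left out (10 probes), spots of a probe were averaged, and each gene took its brightest probe. Names were updated through RefSeq accessions (26055 of 39429 probes, 66 of the members' 69). Coordinates of probes are those of the array files (mm9). Genes entered the test if each array of some group had them well above background. The test was limma 3.58.1 in R 4.3.3, as 1 fit over the 8 arrays with 4 residual degrees of freedom, two-sided, with Benjamini-Hochberg adjustment at 0.05. Precision is limited by the number of arrays. The fit was tested on simulated data. Where neither array of a group was well above background, the fold is a bound: the dim side is taken per array as the probe's own signal or, if that is lower, the lowest signal well above background.

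Replicate number is the slide. Replicate differences correlated between groups with r from 0.1387 to 0.3595, above 0.1 for all 6 pairs, so the numbers pair the arrays, as the shared slide does. Every tested member that passed by at least 2-fold in any comparison, and Ccl6, Ccl9, Cxcl1, Cxcl12 and Cxcr4, is given with its values; the other members are named with a value or range. Of the other pathway genes, up to 6 per comparison passing by at least 2-fold are named by size. Alternatives were normexp (offset 50), quantile normalization, the authors' table, other filters, averaging all probes of a gene, a slide block, moderation with trend and robust settings, fits of only the compared groups, and each array left out. Protein sequences were not used here. The values of 1 tested receptor and of 1 other pathway gene are not reported here; both remain in the counts.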

Additional observations from a re-analysis of the deposited data

Results flagged for a closer look

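For 10 of the 32 tested members, the GFP difference in hematopoietic cluster cells differed from that in endothelial cells by limma's test of the difference itself, where 31.1% of all tested genes did. It was higher in cluster cells for Ccl2 (0.65), Ccl4 (0.88), Ccl6 (1.35), Ccl9 (1.01), Cx3cr1 (0.61), Cxcr2 (2.39) and the unassigned probe named Cxcl11 (1.004), all as log2 values. It was lower in cluster cells for Cxcl1 (-0.64), Cxcl12 (-0.52) and Cxcr7 (-1.10). Cxcr2 was well above background on neither GFP+ endothelial array, so its value is no measured size. The Cxcl1 call was lost without the second GFP+ cluster, the first GFP+ endothelial or the second GFP- endothelial array (-0.63 to -0.58, adjusted p from 0.0524 to 0.0589), and that of Cx3cr1 with the mean of both its probes.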

How the results depend on the processing

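The number of members that passed stayed within 1.5 times its main value (20 and 27 for GFP in cluster and endothelial cells, 23 and 17 for cluster against endothelial cells with and without GFP, 10 for the difference between the GFP effects) under quantile normalization, the authors' table, both other filters, the mean of a gene's probes, trend and robust moderation, only the groups compared and the slide as a block (replicate block: 20, 27, 24, 17 and 13). Under normexp it was 0, 0, 1, 0 and 0, and without the 2 aberrant spots, a setting added after the data were seen, 18, 18, 18, 14 and 13. Leaving out 1 array gave 17 to 19, 16 to 27, 19 to 24, 13 to 17 and 10 to 12, the 16 without the second GFP- endothelial array.

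Of the 97 member differences that passed, normexp reversed 20 and left 1 call, for the reason of those spots, on the second GFP- endothelial array. For GFP in endothelial cells the reversed values were -0.82 for Ccl12, -0.80 for Ccl17, -0.42 for Ccl2, -0.45 for Ccl24, -0.35 for Ccl4, -0.047 for Ccl6, -1.12 for Ccl7, -0.34 for Ccl9, -0.41 for Cxcl10 and -0.43 for Cxcl16. Between the classes among GFP- cells they were -0.58 for Ccl12, -0.11 for Ccl2, -0.46 for Ccl24, -0.017 for Ccl4, -0.21 for Ccl6, -1.05 for Ccl7, -0.22 for Cxcl1, -0.43 for Cxcl10 and -0.23 for Cxcr3, and for the difference between the GFP effects 0.41 for Cxcl1. No other setting reversed a call, and the directions within each slide, a setting also added after the data were seen, were those of the pooled fit for all 97. The slide as a block lost 1 call, Ccl25 between the classes among GFP+ cells, and changed no other call that had passed. Quantile normalization and the authors' table lost 9 each, and no filter on dim probes 20. Normexp without the 2 aberrant spots lost 19, and leaving out 1 array lost 4 to 18. Signal near background limited Ccl5, Ccl7, Ccl17, Ccl21a, Ccr7, Ccr8, Ccr9, Cxcl17 and Cxcr2.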
